A study of Mus musculus with 4 samples.

Results

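Neutrophils of the mouse aortic arch were taken from single-cell RNA-seq of whole arches with their main branches. Barcodes were kept as cells when they detected between 200 and 6000 genes and had no more than 15% of their UMIs (unique molecular identifiers, each standing for 1 captured transcript molecule) from mitochondrial transcripts. A kept cell was called a neutrophil when it held at least 20 UMIs of S100a8, at least 20 of S100a9 and at least 3 of Retnlg, Csf3r and Cxcr2 together, with no Pdgfra and at most 2 Myh11 UMIs. The rule found 123 neutrophils among 14148 kept cells, or 0.869% (exact 95% binomial interval 0.723 to 1.04). Classical monocytes, the cells they are set against, held at least 3 Plac8, at least 3 Ly6c2 and Chil3 together, at least 5 Lyz2 and at most 1 Retnlg UMIs, and numbered 109 after 1 cell that met both rules was counted as a neutrophil only. Because measured transcripts chose both classes, differences between them are given as descriptions without a test.

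The study holds 4 libraries, 1 for each combination of genotype and diet, each a pool of arches from male mice that were 3 months old at the start. Nrf2 flox/flox mice carry floxed alleles of Nfe2l2, the gene of the antioxidant transcription factor Nrf2, and Nrf2Cdh5tKO mice carry in addition a constitutive Cre driven by the Cdh5 promoter, which acts in endothelium and in the blood cells that descend from it. The atherosclerotic libraries pooled 3 mice each, given a tail vein injection of an AAV8 vector and a high-fat diet for 21 weeks. The normocholesterolemic libraries pooled 4 mice each, given saline and a standard diet. Perivascular tissue was left on, vessels were perfused, and live cells were sorted after digestion and red cell lysis. With 1 library per group there is no replicate error: intervals cover counting error only, ratios compare libraries and not conditions, and cells of 1 library are not replicates.

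Neutrophils are short-lived granulocytes made in the bone marrow. Their granule proteins are transcribed in succession while the cell matures, primary granules in promyelocytes, secondary granules in myelocytes and tertiary granules later, and transcription of the earlier sets stops before the cell enters the blood. Mature cells keep receptors such as Cxcr2 and Csf3r and can transcribe inflammatory mediators such as Il1b in tissue, whereas classical monocytes arise from a related progenitor and give rise to macrophages and dendritic cells.

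The 123 cells carried the label's markers beyond those the rule named. Mmp9, gelatinase B of the tertiary granules, had a UMI in 109 of 123 cells, and Ly6g, the surface antigen used to gate mouse neutrophils, in 46 of 123. S100a8 ran from 20 to 6462 UMIs per cell with a median of 228, and S100a9 from 24 to 7860 with a median of 321; these genes encode the subunits of calprotectin. The neutrophils were shallow, with a median of 3723 UMIs and 1205 genes. Markers of other cell types were read as follows. All 12 classical monocyte markers were detected, with 10392 UMIs led by Lyz2 with 7221. The eosinophil list held 8 UMIs with Epx, Prg2 and Il5ra at 0, the basophil and mast cell list held 1 with Mcpt8, Fcer1a, Ms4a2 and Gata2 at 0, the platelet list held 2, the T cell list 15 with Cd3e, Trac and Cd4 at 0, and the NK cell list 13. Macrophage markers summed to 173 UMIs, led by Cd68 with 41. Dendritic cell markers summed to 221, led by Cd74 with 134, and smooth muscle markers to 418, led by Acta2 with 242. Fibroblast markers summed to 827, led by Dcn with 622, and 3 cells with at least 30 Dcn UMIs held 442 of these. Another 5 cells held at least 10 UMIs of the monocyte gene Plac8, 150 of 222 in all. These 8 cells, 5 of the normocholesterolemic and 3 of the atherosclerotic flox/flox library, stayed in the main values. They held 42.2% of the neutrophil UMIs of the atherosclerotic flox/flox library, and 2 of them held 39898 of the 60084 UMIs of its granule-poor cells, a class defined below by its granule transcripts. The Plac8 limit is a fixed count at any depth. A cell of this library with 50252 UMIs met it on 21 Plac8 UMIs while it held 4205 UMIs of Ngp, Camp and Ltf. That cell alone held 50252 of the 90150 UMIs that leave this library with the 8 cells. Values without these cells are given for part of the results between libraries. Scrublet called 2 of the 123 cells doublets, and 31 cell barcodes occurred in more than 1 library, 1 of them a neutrophil's.

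Outside the rule, 30 barcodes held at least 20 UMIs of both S100 genes. Of these, 2 failed the cell filters and 20 had too much Pdgfra or Myh11, of which 6 failed by 1 Pdgfra UMI alone. The 20 were uneven between libraries. The normocholesterolemic flox/flox library held 15 and its Nrf2Cdh5tKO counterpart 1, and the atherosclerotic flox/flox library held 0 and its counterpart 4. The other 8 had fewer than 3 UMIs of Retnlg, Csf3r and Cxcr2, and 7 of them were full of granule transcripts. The lowest members inside had 20 S100a8 UMIs, 24 S100a9 UMIs and a sum of 3 over Retnlg, Csf3r and Cxcr2.

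Nfe2l2 itself (chr2:75675513-75704641, minus strand, GRCm38) was read in neutrophils of every library. On the standard diet it had 413 CPM (UMIs summed over the cells and scaled to 1000000; Poisson 95% interval 358 to 474) in flox/flox neutrophils and 507 (375 to 671) under the Nrf2Cdh5tKO label. On the atherogenic diet these levels were 295 CPM (226 to 377) and 523 (335 to 778). Neither level under the knockout label lay below that of flox/flox neutrophils on the same diet. The deposited counts are per gene and do not show which exon a read came from, so the excision itself was not tested with them. Nqo1, a classical Nrf2 target, had 1 UMI in all neutrophils together.

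Neutrophils made up a smaller share of the cells in both libraries labelled Nrf2Cdh5tKO than in the Nrf2 flox/flox library on the same diet. On the standard diet the flox/flox library had 88 neutrophils among 7890 kept cells, 1.12% (0.895 to 1.37), and the Nrf2Cdh5tKO library 14 among 2972, 0.471% (0.258 to 0.789). The atherosclerotic flox/flox library had 15 among 1020, 1.47% (0.825 to 2.41), and the atherosclerotic Nrf2Cdh5tKO library 6 among 2266, 0.265% (0.0972 to 0.575). The log2 ratio of shares between the labels was -1.24 (-2.17 to -0.42) on the standard diet and -2.47 (-4.13 to -1.03) on the atherogenic diet. Between diets it was 0.40 (-0.50 to 1.20) in the Nrf2 flox/flox pair and -0.83 (-2.50 to 0.64) in the Nrf2Cdh5tKO pair, so that neither direction stood clear of the counting error.

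The denominator changed parts of this picture. Among cells with Ptprc, the pan-leukocyte antigen CD45, neutrophils were 4.72%, 1.72%, 3.61% and 1.22% in the same order of libraries, and the label ratios were -1.45 (-2.38 to -0.63) and -1.57 (-3.22 to -0.12) on the log2 scale. Against classical monocytes the separation between labels lay within the counting error. There were 1.49 neutrophils per monocyte in the normocholesterolemic flox/flox library, 0.875 in its Nrf2Cdh5tKO counterpart, 0.682 in the atherosclerotic flox/flox library and 0.5 in its counterpart. The log2 ratios between labels were -0.77 (-1.70 to 0.05) and -0.45, both with intervals that held 0. Here the diet pairs went the same way, -1.13 (-2.03 to -0.33) in the Nrf2 flox/flox pair and -0.81 (-2.47 to 0.66) in the Nrf2Cdh5tKO pair. The monocyte share itself was 0.748%, 0.538%, 2.16% and 0.530% of kept cells, and was 1.53 higher on the log2 scale (0.75 to 2.26) with the atherogenic diet in the Nrf2 flox/flox pair.

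In contractile cells, S100a8 was ordered like the neutrophil share between labels. These cells (at least 10 Myh11 UMIs, no Ptprc) are not known to make S100a8 (chr3:90668978-90670035, plus strand), and it was read at 24.5 CPM (22.5 to 26.7) in 1336 cells of the normocholesterolemic flox/flox library and at 6.02 (4.19 to 8.37) in 344 cells of its Nrf2Cdh5tKO counterpart. The atherosclerotic libraries gave 21.8 CPM (12.7 to 34.9) in 61 Nrf2 flox/flox cells and 2.58 (1.18 to 4.89) in 247 Nrf2Cdh5tKO cells. This background reached 26.9%, 9.59%, 26.2% and 3.64% of the contractile cells in the same order, against 20 UMIs required of a neutrophil. Fibroblasts gave 22.5, 3.70, 17.0 and 35.5 CPM, and in the last of these libraries 291 of 308 S100a8 UMIs lay in 1 cell. The part of free RNA and of cell recovery in these differences was not tested.

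**Figure D1:**
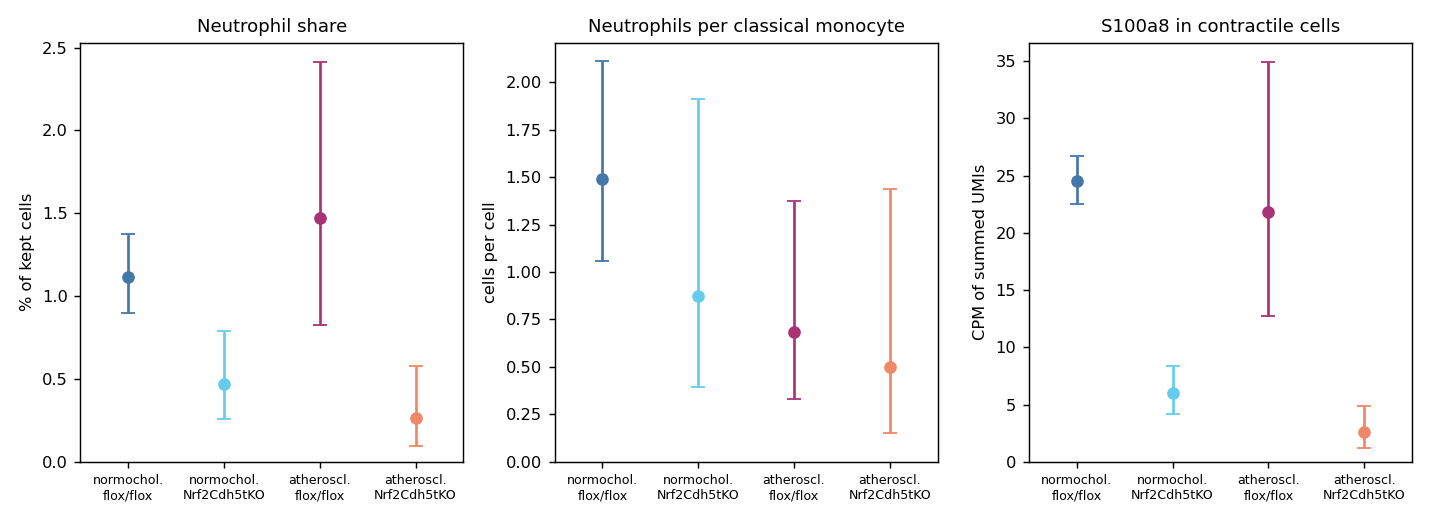
Neutrophils as a percentage of kept cells (left), neutrophils per classical monocyte (middle) and S100a8 in contractile cells in CPM of summed UMIs (right). Each point is 1 of the 4 libraries with its 95% counting interval; the left and right panels share an order in which both libraries labelled Nrf2Cdh5tKO lie below both Nrf2 flox/flox libraries, while the intervals of the middle panel overlap.

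The neutrophils differed among themselves in granule transcripts. The summed UMIs of Ngp, Camp and Ltf were 0 in 77 of 123 cells, at most 36 in 98 cells called granule-poor here, and at least 124 in the other 25, called granule-rich, with 3 cells between 25 and 100, all below the limit of 50. The limit was chosen after these values were seen. Ngp (neutrophilic granule protein, chr9:110419747-110423012, plus strand), Camp (the cathelicidin antimicrobial peptide, chr9:109847379-109849617, minus strand) and Ltf (lactotransferrin, chr9:111019271-111042767, plus strand) are secondary granule genes, transcribed in the marrow at the myelocyte stage. A granule-rich cell held a median of 628 Ngp, 690 Camp and 165 Ltf UMIs, and a granule-poor cell a median of 0 of each. Granule-rich cells were also deeper, with a median of 13127 UMIs and 2063 genes against 3365 UMIs and 1143.5 genes. Although 25 of 123 cells, they held 51.0% of the UMIs of all neutrophils.

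The 5′ flanks of the genes that part these cells are shown because they hold, or lack, the letters of factors that act on granule and inflammatory genes. Each is the genomic strand of the gene, 5′ to 3′, from 250 to 66 bases before the RefSeq start (GRCm38.p6), in lower case with motif matches in capitals. The C/EBP letters were TTGCNNAA or TTNNGCAA on the other strand, present in 2503 of 32851 such windows (7.62%), and the NF-kappa B letters GGNNTTTCC or GGAAANNCC, in 1186 (3.61%). The letters were chosen after the values were seen, and a match is a description of sequence, not a binding site. The windows lie at chr9:110419558-110419742 (Ngp, plus strand), chr9:111019042-111019226 (Ltf, plus strand), chr2:129371205-129371389 (Il1b, minus strand) and chr5:90903649-90903833 (Cxcl2, plus strand).
Ngp: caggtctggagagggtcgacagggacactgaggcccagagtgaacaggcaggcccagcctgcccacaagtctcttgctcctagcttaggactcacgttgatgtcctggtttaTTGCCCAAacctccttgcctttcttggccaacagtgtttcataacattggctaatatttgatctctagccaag
Ltf: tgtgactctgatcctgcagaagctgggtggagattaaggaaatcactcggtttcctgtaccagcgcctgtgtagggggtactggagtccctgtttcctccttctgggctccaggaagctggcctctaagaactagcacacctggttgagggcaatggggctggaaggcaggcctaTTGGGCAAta
Il1b: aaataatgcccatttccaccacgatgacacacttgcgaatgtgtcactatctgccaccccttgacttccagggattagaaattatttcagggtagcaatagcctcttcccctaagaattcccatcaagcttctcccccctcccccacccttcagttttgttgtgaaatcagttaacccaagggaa
Cxcl2: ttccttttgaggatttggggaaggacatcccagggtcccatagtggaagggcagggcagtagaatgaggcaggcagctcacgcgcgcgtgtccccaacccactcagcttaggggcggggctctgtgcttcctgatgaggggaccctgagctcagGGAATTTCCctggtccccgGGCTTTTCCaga
Ngp and Ltf each had 1 C/EBP match, 138 and 75 bases before the start. Cxcl2 had 2 NF-kappa B matches, 96 and 77 bases before it, and the Il1b window had neither motif.

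Granule-rich cells carried the transcripts of maturing cells, and granule-poor cells those of inflammatory mediators. Of 3987 genes with at least 20 UMIs in both sums together, 9.48% were at least 2-fold higher in granule-rich cells and 33.9% at least 2-fold lower, with a median log2 ratio of -0.50 over all of them. Of the 7 secondary granule genes 6 were past 2-fold higher, with a list median of 6.12 that Ngp, Camp and Ltf fix by the choice of cells. Lcn2, the siderophore-binding neutrophil gelatinase-associated lipocalin, had 7030 UMIs in granule-rich and 708 in granule-poor cells, 9.56-fold higher in CPM (log2 3.26, 3.14 to 3.37). Cybb, the catalytic subunit of the phagocyte NADPH oxidase, was 5.69-fold higher (log2 2.50, 2.19 to 2.84). Primary granule genes, 4 of 4 measured, were higher as well. The serine proteases Elane and Prtn3 had 171 and 191 UMIs in granule-rich cells and 0 in granule-poor ones, at least 54.9-fold and 61.3-fold higher against a floor of 3 UMIs. These UMIs came from very few cells: 168 of the 171 Elane UMIs lay in 1 atherosclerotic flox/flox cell with 50252 UMIs, and Prtn3 was read in 3 of the 25 granule-rich cells. That 1 cell is among the 8 with transcripts of other types by 21 Plac8 UMIs, and it also held 2820 Camp and 35 Mki67 UMIs. The values without the 8 cells thus leave out a cell full of granule transcripts. Without the 8 cells Prtn3 was the 1 primary granule gene left with enough UMIs.

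Genes of several other lists lay on the same side. Cebpe, the transcription factor needed for secondary granules, had 131 UMIs in granule-rich and 6 in granule-poor cells (log2 ratio of CPM 4.29, 3.23 to 5.87). Chil3 was 84.1-fold higher with 2009 against 23 UMIs. All 4 measured genes of dividing cells were higher, with a median log2 ratio of 4.18: the proliferation antigen Mki67 had 116 against 5 UMIs and topoisomerase Top2a 113 against 2. These UMIs came from few cells, since Mki67 was read in 3 of 11, 0 of 4, 2 of 7 and 0 of 3 granule-rich cells of the 4 libraries. Not all of these genes belong to immature cells. Ly6g, on the list of mature neutrophil genes, was 7.25-fold higher, with a median of 9 UMIs in a granule-rich cell and 0 in a granule-poor cell. Cd177, a neutrophil surface antigen on the tertiary and secretory granule list, was 7.90-fold higher. The mature list was mixed, since its gene Stfa2l1 had 18.6 CPM in granule-rich and 663 in granule-poor cells.

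Mediators lay on the other side. Il1b (chr2:129364570-129371139, minus strand), a fever cytokine processed by the inflammasome, had 68 UMIs in granule-rich and 3668 in granule-poor cells, 56.0-fold lower in CPM (log2 -5.80, -6.18 to -5.46). Cxcl2 (chr5:90903871-90905938, plus strand), a ligand of Cxcr2, had 209 against 4683 and was 23.3-fold lower (log2 -4.54, -4.75 to -4.34). Of the 12 cytokine and chemokine genes measured, 11 were past 2-fold lower in granule-rich cells (median -5.12), against 33.9% of all genes. Ccl4 had 0 against 266 UMIs, at least 92.1-fold lower, Ccl6 17 against 872, and Ptgs2, the inducible cyclooxygenase, 3 against 325. All 15 genes of the NF-kappa B and immediate early list were lower, with a median of -2.82, among them Nfkbia, the inhibitor that NF-kappa B induces, at 185 against 1687 UMIs.

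Of 7 measured chemoattractant receptors 1 was past 2-fold higher and 5 were lower in granule-rich cells (median -1.36), and of 13 pattern recognition and activating receptors none was higher and 8 were lower (-1.33), against 9.48% and 33.9% of all genes. Csf3r, the receptor of granulocyte colony-stimulating factor, was 15.5-fold lower in granule-rich cells (log2 -3.93, -4.50 to -3.45) and Cxcr2 5.24-fold lower (-2.38, -2.72 to -2.07). Both values are descriptions of what the rule selected, since it asked for a fixed number of UMIs of these genes at any depth, which binds shallow cells more than deep ones. Clec4d, an activating lectin receptor, was 16.5-fold lower. Of 13 interferon-stimulated genes 12 were past 2-fold lower, with a median of -3.74. Ifitm1 had 455 UMIs in granule-poor cells and 0 in granule-rich cells, at least 157-fold lower, and 0 of 25 granule-rich cells allows a share of cells with a UMI of up to 12%, which is no limit on cells that express the gene. Of 10 survival and apoptosis genes 8 were lower, among them Mcl1, the short-lived survival factor of neutrophils, at 180 against 921 UMIs. The Nrf2 and antioxidant list had 9 of 14 lower and 2 higher: the cystine transporter Slc7a11 (75 against 903 UMIs) and ferritin heavy chain Fth1 (869 against 4925) were lower, while G6pdx and Tkt of the pentose phosphate pathway were 3.85-fold and 3.31-fold higher. Without the 8 cells, 12 of 12 cytokine genes, 14 of 15 NF-kappa B and immediate early genes, 12 of 13 interferon-stimulated genes and 7 of 9 survival genes were lower, and Il1b was at -6.00 (-6.38 to -5.66), against 33.1% of all genes.

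To compare shares at equal depth each cell was thinned to 1000 UMIs, which left out 2 granule-poor cells. Il1b then had a UMI in 92.7% of 96 granule-poor, 28% of 25 granule-rich and 55.0% of 109 classical monocytes (99.0%, 48% and 78.9% without thinning). Csf3r was read in 74.0%, 12% and 5.50%, Cxcr2 in 69.8%, 24% and 0.917%, and Lcn2 in 51.0%, 100% and 4.59%. Il1b and Lcn2 kept the direction of their CPM between the granule classes, and the shares of Csf3r and Cxcr2 describe what the rule selected at any depth. Fpr2, whose log2 ratio of CPM was 0.27 (-0.15 to 0.69) in granule-rich cells, was read in 27.1% of granule-poor and 32% of granule-rich cells. Ly6g was read in 2.08% of granule-poor and 64% of granule-rich cells. In 1988 contractile cells, with a median of 15900 UMIs, the shares with a UMI were 6.34% for Il1b, 34.2% for Cxcl2, 0.654% for Csf3r and 0.101% for Ly6g.

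**Figure D2:**
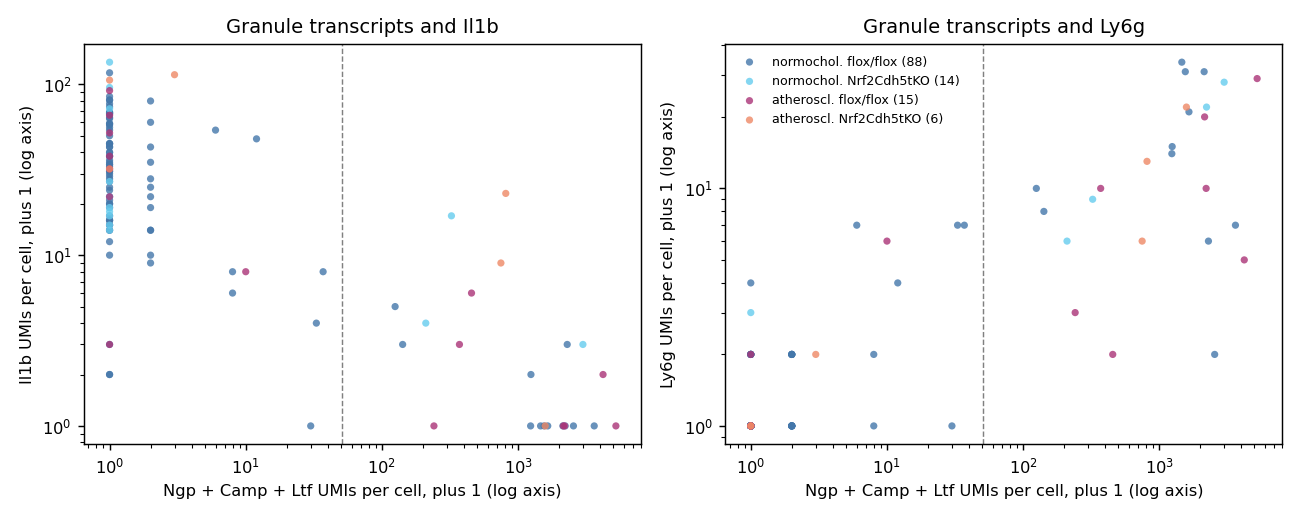
UMIs of Ngp, Camp and Ltf summed per cell plus 1 (x, log axis) against Il1b plus 1 (left) and Ly6g plus 1 (right) on log axes; each point is 1 of the 123 neutrophils, coloured by library, and the dashed line marks 50 granule UMIs. The 98 cells left of the line hold up to 134 Il1b UMIs and at most 6 of Ly6g, and the 25 right of it at most 22 of Il1b and 1 to 33 of Ly6g.

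Granule-rich cells were found in every library. They were 11 of 88 neutrophils in the normocholesterolemic flox/flox library, 12.5% (6.41 to 21.3), and 4 of 14 in its Nrf2Cdh5tKO counterpart, 28.6% (8.39 to 58.1). They were 7 of 15 in the atherosclerotic flox/flox library, 46.7% (21.3 to 73.4), and 3 of 6 in its counterpart, 50% (11.8 to 88.2). Only the 2 Nrf2 flox/flox intervals fall just short of each other. In the same order of libraries, 1, 3, 3 and 0 further granule-rich cells missed the rule on Retnlg, Csf3r and Cxcr2 and are not in these shares. As a share of kept cells, granule-rich neutrophils were 2.30 higher on the log2 scale (0.69 to 3.80) with the atherogenic diet in the Nrf2 flox/flox pair, where granule-poor neutrophils were at -0.32. In the Nrf2Cdh5tKO pair granule-rich neutrophils were at -0.02 (-2.79 to 2.54). By label they were at -0.05 (-2.16 to 1.70) on the standard and -2.37 (-4.96 to -0.24) on the atherogenic diet, and granule-poor neutrophils at -1.54 (-2.65 to -0.58) on the standard and -2.57 (-5.12 to -0.51) on the atherogenic diet. Since granule-rich cells are deep, they held 37.1%, 63.3%, 71.9% and 74.9% of the neutrophil UMIs of the 4 libraries.

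Against classical monocytes, neutrophils were marked by a few very large differences on a lower median. Of 7627 genes measured, 9.2% were at least 2-fold higher in neutrophils and 32.6% at least 2-fold lower, with a median log2 ratio of -0.52; S100a8 and S100a9 take up so much of the neutrophil total that the median was -0.17, with 14.1% higher and 22.5% lower, when both were left out of it. All other values here are on the full total. The granule sums of the monocytes came from 5 of these 109 cells, which held at least 20 UMIs of both S100 genes, 3 of the normocholesterolemic flox/flox and 2 of its Nrf2Cdh5tKO library; they held 5043 of 5049 Camp and 3625 of 3630 Ngp UMIs.

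The 15 genes named farthest above monocytes were chosen by the size of the ratio and the same sign in each library that held at least 5 cells of both classes. Retnlg (resistin-like gamma, chr16:48872621-48874496, plus strand), which the rule used, had 12532 CPM in the normocholesterolemic flox/flox, 13849 in its Nrf2Cdh5tKO, 5046 in the atherosclerotic flox/flox and 22613 in its Nrf2Cdh5tKO neutrophils, and 5 UMIs in all monocytes. Mmp9 had 1019, 1149, 552 and 1133 CPM in the same order and 1 UMI in monocytes. Cxcr2 had 780, 849, 365 and 588 CPM and 4 UMIs in monocytes. In all 3 the atherosclerotic flox/flox library was lowest, the library in which a single deep granule-rich cell reached 50252 UMIs.

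Stfa2l1 and Gm5483, stefin-type inhibitors of cysteine proteases whose near-identical copies make their counts uncertain, had 283 and 281 UMIs in neutrophils and 0 in monocytes, at least 170-fold and 169-fold higher. Il1f9, an interleukin-1 family cytokine, had 252 UMIs against 1 and Acod1, which makes itaconate, 772 against 20. The formyl peptide receptor Fpr1 had 185 against 4, Il18rap, an interleukin-18 receptor subunit, 81 against 1, and the carcinoembryonic antigen family gene Ceacam10 74 against 1. Dhrs9, Ankrd22, AC110211.1 and 1700047M11Rik completed the list with Ly6g (384 against 6 UMIs). Another 15 genes were chosen in the same way farthest below monocytes. Among them, Ms4a4c had 2 UMIs in neutrophils and 661 in monocytes, Ms4a6d 1 and 319, the high-affinity IgG receptor Fcgr1 2 and 171, and cathepsin C (Ctsc), which activates granule proteases in precursors, 18 and 854. The syndecan Sdc3 and the adenosine receptor Adora2b had 0 in neutrophils and 82 each in monocytes. Ifi211, Ahr, Phf11b, P2rx4, Tnfsf9, Plekho1, Msr1 and Ass1 were also among the 15.

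Mature neutrophil genes and the secondary and tertiary granule genes lay mostly above monocytes. Of 7 secondary granule genes 5 were past 2-fold higher (median log2 2.82), of 8 tertiary and secretory granule genes 6 (2.07), and of 13 measured mature neutrophil genes 10 (4.76), against 9.2% of all genes. The collagenase Mmp8 was 19.9-fold higher (log2 4.31, 3.99 to 4.66), the interleukin-1 decoy receptor Il1r2 27.4-fold (4.76, 4.33 to 5.26), and Hdc, which makes histamine, 43.9-fold (5.43, 4.97 to 5.98). Asprv1, a retroviral-like aspartic protease, had 307 UMIs against 0. Without the 5 cells the log2 ratio of Camp went from 2.82 to 12.26 and that of Lcn2 from 3.51 to 8.79. List medians without the 5 cells were 8.79 for the secondary granule, 2.31 for the tertiary granule and 6.42 for the mature neutrophil list. Primary granule genes were lower in 4 of 5 (median -1.77). Without the 5 cells Elane moved from -1.77 to 0.16 (-0.13 to 0.44) and Prtn3 from -1.35 to 0.71 (0.41 to 1.01). Mpo and Ctsg were still lower without them, at -1.87 (-2.46 to -1.35) and -4.57 (-7.88 to -2.92).

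Receptors were mixed, against 9.2% of all genes higher and 32.6% lower. Of 8 measured chemoattractant receptors 4 were past 2-fold higher and 1 lower (median 0.99): Fpr2 was 7.27-fold and the complement receptor C5ar1 3.63-fold higher, and C3ar1 15.6-fold lower with 2 against 56 UMIs. Of 14 pattern recognition and activating receptors 6 were higher and 1 lower (median 0.70), Trem1 6.18-fold and Clec4d 3.81-fold higher and the endotoxin co-receptor Cd14 3.25-fold lower. Of 11 adhesion molecules 2 were higher, Ceacam10 among them, and 2 lower, the integrin chains Itga4 and Itgb1 that together bind VCAM-1 (median 0.34). The NADPH oxidase list had Ncf1 and Rac2 higher and none of 6 lower (median 0.31).

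Il1b and Cxcl2 were abundant in both classes. Il1b had 3736 UMIs in neutrophils and 3927 in monocytes, 1.71-fold higher in CPM, and Cxcl2 4892 and 6737, 1.31-fold higher. These neutrophil sums pool the granule classes, and granule-rich cells held 51.0% of their UMIs. With cells thinned to equal depth, Il1b was read in 92.7% of 96 granule-poor, 28% of 25 granule-rich cells and 55% of 109 monocytes. For Cxcl2 these shares were 92.7%, 20% and 55%. In these shares granule-poor cells lay above monocytes and granule-rich cells below them, which the pooled ratios do not show. Over all neutrophils, 1 of 17 measured cytokine and chemokine genes was past 2-fold higher than in monocytes, the macrophage growth factor Csf1 at 6.95-fold. Another 6 were lower (median -0.02), against 9.2% of all genes higher and 32.6% lower. The lower ones included Ccl9 at 22.4-fold lower and Il6 at 6 against 100 UMIs. Interferon-stimulated genes had 5 higher and 6 lower of 19 (median -0.08) against the same background: Ifitm1 was 34.1-fold and Slfn4 14.9-fold higher, Bst2 13.6-fold and Ifi204 6.87-fold lower.

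Lipid-handling genes stood below monocytes, 9 of 12 past 2-fold lower and none higher (median -2.02, against 32.6% of all genes lower). The scavenger receptor Msr1 had 3 against 165 UMIs, the lipid droplet protein Hilpda 8 against 180, and Apoe was 5.58-fold lower. The Nrf2 and antioxidant list had 1 of 17 higher and 4 lower (median -0.31). Slc7a11 was the 1 above, 5.50-fold higher with 978 against 320 UMIs (log2 2.46, 2.27 to 2.65), and peroxiredoxin Prdx1 (5.32-fold) and heme oxygenase Hmox1 (3.67-fold) were lower. Nfe2l2 was at -0.31 (-0.50 to -0.12). Of 13 glycolysis and hypoxia genes 3 were higher, led by the glucose transporter Slc2a3 at 25.5-fold (median 0.30).

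The regulatory and remaining lists are set against 9.2% of all genes higher and 32.6% lower, with a median of -0.52. None of 12 survival genes was past 2-fold higher and 3 were lower (median -0.44), and none of 15 NF-kappa B and immediate early genes was higher and 2 were lower (-0.06). Of 13 myeloid transcription factors Cebpe and Klf2 were higher and 5 lower (-0.51), with Irf8, a monocyte and dendritic cell factor, at 7 against 129 UMIs. Of 8 genes measured from a list of Siglecf-high neutrophils 2 were higher and 3 lower (-0.64), with Cd274 (PD-L1) at 92 against 37 UMIs, all 92 in granule-poor cells. Of 4 further S100 genes S100a11 was 3.62-fold higher and S100a4 13.8-fold lower (-0.75), and of 5 genes of dividing cells 1 was higher (0.57), or 4 (1.13) without the 5 monocytes with high S100 counts.

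**Figure D3:**
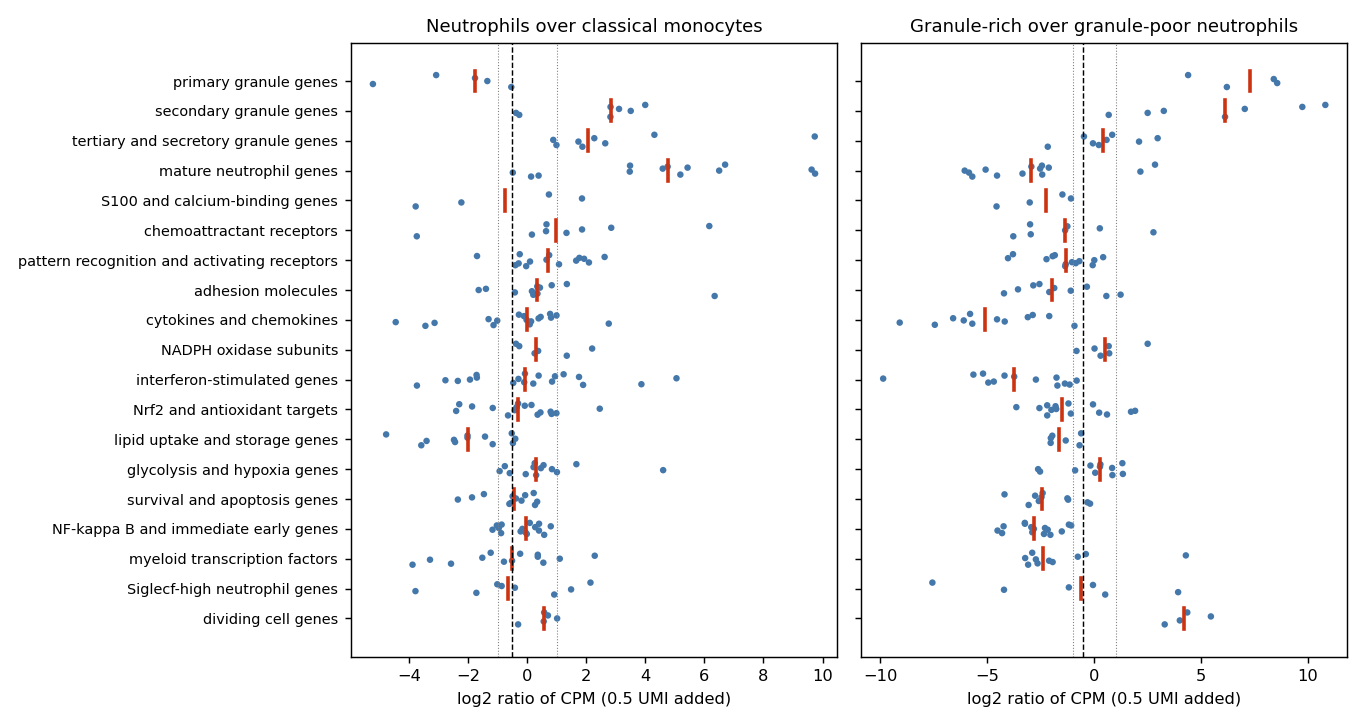
Log2 ratio of CPM (x, 0.5 UMI added) for the measured genes of 19 lists, neutrophils over classical monocytes (left) and granule-rich over granule-poor neutrophils (right). Each point is 1 gene, red bars are list medians, the dashed line is the median of all measured genes (-0.52 and -0.50) and dotted lines mark 2-fold; cytokine genes lie around 0 on the left and mostly far below it on the right.

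Comparisons between libraries asked how the atherogenic diet and the genotype label went with neutrophil transcripts. The Nrf2 flox/flox diet comparison measured 3653 genes, of which 10.9% were at least 2-fold higher and 15.1% at least 2-fold lower in the atherosclerotic library. The Nrf2Cdh5tKO diet comparison measured 787, with 5.46% higher and 10.7% lower. By label, 3% of 3038 genes were higher and 21.6% lower under Nrf2Cdh5tKO on the standard diet (5.01% and 17.4% with S100a8 and S100a9 left out of the total), and 8.89% of 1586 higher and 30.9% lower on the atherogenic diet. Without the 8 cells with transcripts of other types these label shares were 3.14% and 16.2% of 2643 genes, and 9.36% and 15.7% of 940. In the Nrf2 flox/flox diet pair 6.98% of 2809 were then higher and 17.3% lower. The diet and label comparisons share libraries, and the share of granule-rich cells differs between all of them, so the values are also given for granule-poor cells.

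With diet, 2 of 786 genes measured in both pairs were past 2-fold higher in both with intervals that left out 0, and 18 lower, of 25 past 2-fold lower. These were 2 higher and 16 lower of 786 without the 8 cells. Ifitm1 (chr7:140967221-140969825, plus strand), an interferon-induced membrane protein that restricts virus entry, led those lower. It had 378 UMIs in 51 of 88 neutrophils (774 CPM) of the normocholesterolemic flox/flox library and 60 in 8 of 14 (621 CPM) of its Nrf2Cdh5tKO counterpart. The atherosclerotic libraries had 17 UMIs in 3 of 15 cells (79.5 CPM) and 0 in 6 cells. Both atherosclerotic libraries were thus below both normocholesterolemic ones: 9.73-fold lower in the Nrf2 flox/flox pair (log2 -3.26, -4.08 to -2.58) and at least 9.50-fold lower in the Nrf2Cdh5tKO pair, where a count of 0 allows 65.4 CPM and, over 6 cells, a share of cells with a UMI of up to 50%. In granule-poor cells alone the shares with a UMI were 51 of 77, 8 of 10, 3 of 8 and 0 of 3, and the log2 ratio of the Nrf2 flox/flox pair was -2.11 (-2.91 to -1.42). Without the 8 cells that carried transcripts of other types it was -4.34 over all neutrophils and -2.58 (-4.23 to -1.36) in granule-poor cells, on 5 UMIs against 361. In contractile cells Ifitm1 had a UMI in 1.16%.

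Asprv1 (chr6:86628164-86629710, plus strand) had the same order. It had 230, 66, 11 and 0 UMIs in the order used above (471, 683, 51.4 and 0 CPM), in 33 of 88, 7 of 14, 4 of 15 and 0 of 6 cells. The log2 ratio was -3.16 (-4.22 to -2.33) in the Nrf2 flox/flox pair, -2.14 (-3.24 to -1.25) in its granule-poor cells, and at least 10.4-fold lower in the Nrf2Cdh5tKO pair. The Nrf2 flox/flox values without the 8 cells were -2.80 and, on 8 UMIs against 216 in granule-poor cells, -1.17 (-2.41 to -0.18). Asprv1 had a UMI in 0.453% of contractile cells. The other 8 named genes lower with diet had smaller ratios: Gm10076, the lectin Clec2d, the interferon regulatory factor Irf1, Trim30b, the cell cycle inhibitor Cdkn1b, Emilin2, the cytochrome P450 reductase Por, and Apoe. Irf1 had 286, 279, 74.8 and 65.4 CPM, Cdkn1b 278, 321, 56.1 and 87.1, and Clec2d 186, 186, 28.1 and 43.6. These 3 rest on 3, 4 and 2 UMIs in the atherosclerotic Nrf2Cdh5tKO library. Contractile cells had a UMI of Irf1 in 45.1%, of Cdkn1b in 66% and of Clec2d in 23.5%, far more often than of Ifitm1 or Asprv1. In granule-poor cells 4 of 342 genes were lower past both limits, namely Asprv1, Ifitm1, Irf1 and the Cdk2-associated gene Cdk2ap2, which was not past 2-fold over all neutrophils, and none was higher. With the 8 cells removed, Irf1 was at 0.08 (-1.02 to 1.01) in granule-poor cells of the flox/flox pair, Gm5483 took its place among 4 lower genes, and 4 genes were higher (Sh2d3c, Vps37b, Nr4a1 and Slc15a3). Higher with diet were Mier1 (log2 1.18 and 1.28 in the 2 pairs), a corepressor subunit, and Nhsl2 (1.60 and 1.13), both on few UMIs. In granule-poor cells Mier1 had 78.1, 225, 183 and 347 CPM in the order used above, and Nhsl2 22.8, 84.5, 49.9 and 0. The higher value of Nhsl2 in the Nrf2Cdh5tKO pair was thus not seen there, where a count of 0 in 3 cells allows 260 CPM. Mier1 had a UMI in 80.0% of contractile cells.

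Over all neutrophils, Il1b was lower with diet in the flox/flox pair and higher in the Nrf2Cdh5tKO pair. It had 5521, 4616, 1464 and 6078 CPM over all neutrophils, and 8748, 11974, 5076 and 21581 CPM in granule-poor cells. The Nrf2 flox/flox pair was at -1.91 (-2.09 to -1.75) with diet over all neutrophils and at -0.78 (-0.96 to -0.61) in granule-poor cells, while the Nrf2Cdh5tKO pair was at 0.40 (0.18 to 0.62) and 0.85 (0.62 to 1.08). Without the 8 cells, all from flox/flox libraries, the flox/flox pair was at -1.67 (-1.86 to -1.48) over all neutrophils and at 0.10 (-0.10 to 0.29) in granule-poor cells, so the negative value in granule-poor cells was not seen without them. The value of 0.85 rests on 3 granule-poor cells with 31, 105 and 113 UMIs. Cxcl2 had 7258, 5310, 2207 and 7843 CPM, and its log2 ratios with diet were -1.72 and 0.56 over all neutrophils and -0.66 and 1.11 in granule-poor cells. Once the 8 cells were removed, the flox/flox pair was at -1.37 and 0.29 (0.13 to 0.45), the latter with the direction turned. In granule-poor cells Il1b had a UMI in 76 of 77, 10 of 10, 8 of 8 and 3 of 3, so nearly every one carried it in each library.

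**Figure D4:**
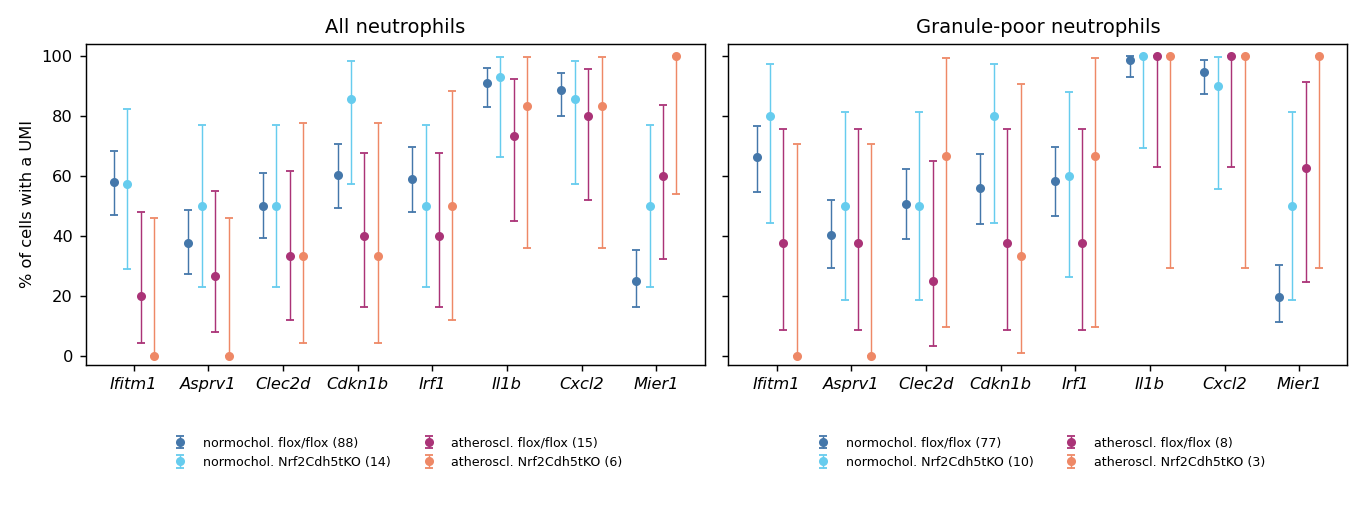
Percentage of neutrophils with a UMI of 8 genes in each of the 4 libraries, over all neutrophils (left) and granule-poor neutrophils (right), with exact 95% binomial intervals and the number of cells in brackets. Ifitm1 runs from 58.0% and 57.1% in the normocholesterolemic libraries to 20% and 0% in the atherosclerotic ones, while Il1b in granule-poor cells is at 98.7% or above in each.

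Gene lists were counted in the diet pairs over all neutrophils and in granule-poor cells alone. In the Nrf2 flox/flox diet pair, 10 of 12 mature neutrophil genes, 11 of 13 interferon-stimulated genes, 8 of 12 cytokine genes and 9 of 15 NF-kappa B and immediate early genes were past 2-fold lower, against 15.1% of all genes. In granule-poor cells of this pair the counts were 5 of 12, 8 of 13, 2 of 11 and 3 of 15, against 17.6% of 2437 genes lower and 15.2% higher. Median log2 ratios there were -0.87, -1.26, -0.43 and -0.70. With the 8 cells left out as well, which removes 66.4% of the UMIs of the atherosclerotic arm, 4 of 12, 6 of 13, 2 of 11 and 3 of 15 were lower, against 20.6% of 1684 genes. The medians were then -0.45, -0.76, 0.10 and 0.34, so the last 2 changed direction. Markers of other cell types moved in this pair as well. Over all neutrophils, smooth muscle markers had 665 CPM in the normocholesterolemic and 131 in the atherosclerotic library, and fibroblast markers 776 and 1969. Without the 8 cells 3 of 3 smooth muscle (median -1.92) and 2 of 2 fibroblast markers (-2.92) were lower, against 17.3% of all genes. The fibroblast value is fixed in part by the choice of cells. Dcn is on that list and chose 3 of the 8, among them an atherosclerotic flox/flox cell with 324 Dcn UMIs. The Nrf2Cdh5tKO pair, which holds none of the 8 cells, had 0 higher and 2 lower of 11 mature neutrophil genes (median 0.36), 1 higher and 1 lower of 5 interferon-stimulated genes (0.02) and none past 2-fold of 6 cytokine genes (0.10) over all neutrophils, against 5.46% of all genes higher and 10.7% lower. Its NF-kappa B and immediate early list had 4 of 13 higher over all neutrophils and 8 of 13 in the granule-poor cells (median 1.26), which are 3 cells against 10. Of all 342 genes measured in these granule-poor cells 13.2% were higher and 13.5% lower. Zfp36, which destabilises cytokine transcripts, had 74 UMIs there against 41 and Fos 56 against 13.

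By label, 2 of 1525 genes measured on both diets were past 2-fold higher with intervals that left out 0, and 73 lower, of 145 past 2-fold lower. The higher ones were the kinase Bmx (log2 1.32 and 1.49 on the standard and atherogenic diet) and the adaptor Lims1 (1.06 and 1.77). In granule-poor cells Lims1 had 45.5 CPM in flox/flox and 28.2 under Nrf2Cdh5tKO on the standard diet, the reverse order, and 133 and 260 on the atherogenic diet. Bmx had 117 and 169 CPM there on the standard and 99.9 and 260 on the atherogenic diet, and both genes rest on few UMIs. Without the 8 cells Bmx was at 1.17 and 0.91, the latter with an interval from -0.39 to 2.22, and Lims1 at 0.91 and 1.65, so that none of 936 genes was past 2-fold higher on both diets, and 23 were lower, Mki67 and Top2a but not Klf4, Manf, Smc2 or Rrm2 among them. Smc2, though no longer counted, still had upper limits of -1.32 and -0.71 on the log2 scale. The 10 named lower ones were at 0 in both Nrf2Cdh5tKO libraries, and all but Klf4 and Manf are genes of dividing cells: Mki67, Top2a, Hist1h1b, Hist1h3c, Smc2, Ube2c, Hist1h2ap and Rrm2. Mki67 had 58, 0, 63 and 0 UMIs, in 5 of 88, 0 of 14, 2 of 15 and 0 of 6 cells, which is at least 3.82-fold and 4.51-fold lower against floors of 31.1 and 65.4 CPM. Of the 63 UMIs, 35 lay in the cell with 50252 UMIs that is among the 8. The zeros belong to the members of the rule. In the normocholesterolemic Nrf2Cdh5tKO library the 3 granule-rich cells that missed the rule on Retnlg, Csf3r and Cxcr2 held 10, 1 and 34 Mki67 UMIs, and in the atherosclerotic flox/flox library the 3 such cells held 24, 3 and 16.

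Klf4, a monocyte and stromal factor, had 57, 0, 47 and 0 UMIs and was at 0 in both atherosclerotic libraries once the 8 cells with transcripts of other types were removed. In granule-poor cells 38 of 530 genes were lower by label on both diets, led after Klf4 by Ecm1, Igfbp5, Col3a1, Plac8, Col1a2, Ahnak, Rpsa, Igfbp6 and Tmsb10, which are stromal, monocyte or housekeeping transcripts. The 8 cells all came from the Nrf2 flox/flox libraries. Without them Plac8 was at 0.09 and 0.70 by label on the standard and atherogenic diet over all neutrophils. High Plac8 chose 5 of the 8 cells, so this change follows from the choice and is no result about Plac8. On the standard diet Igfbp5 was at -2.66 (-8.22 to -0.29) and Ecm1 at -3.01 (-8.57 to -0.67), on 1 UMI each under Nrf2Cdh5tKO. On the atherogenic diet Igfbp5 turned to 3.60, with a lower limit of 0.155 and no upper limit, on 3 UMIs under Nrf2Cdh5tKO. Other named genes turned as well over all neutrophils. Col3a1 was at 0.38 (-1.22 to 1.76) on the standard diet. On the atherogenic diet Ahnak was at 1.01 (-1.23 to 3.32) and Igfbp6 at 2.35 (-0.62 to 8.73). Col1a2, Rpsa and Tmsb10 stayed below 0 on both diets, Rpsa and Tmsb10 with intervals that held 0. In granule-poor cells without the 8 cells 3 of 223 genes were lower on both diets (Skil, Lyz2 and Ccrl2) and none was higher. Higher in granule-poor cells were Lrg1 (log2 1.66 and 1.75), a secreted glycoprotein stored in neutrophil granules, the kinase Pak2 (1.07 and 1.59) and Tnfaip2 (1.03 and 1.48), with 50, 27 and 102 UMIs on the standard diet and 12, 9 and 40 on the atherogenic diet under Nrf2Cdh5tKO. Over all neutrophils without the 8 cells, Lrg1 was at 0.72 (0.32 to 1.11) and 0.63 (0.02 to 1.23), Pak2 at 0.20 and 0.72 (both intervals held 0), and Tnfaip2 at 0.11 (-0.21 to 0.41) and 0.68 (0.15 to 1.22). In granule-poor cells without them the log2 ratios were 1.39 and 0.56 for Lrg1, 1.02 and 0.77 for Pak2 and 0.71 and 0.29 for Tnfaip2, with intervals that held 0 on the atherogenic diet for each. On the Nrf2 and antioxidant list, 1 of 13 genes was higher and 3 lower by label on the standard diet (median -0.53), and 0 of 11 higher and 1 lower on the atherogenic diet (0.15), against 21.6% and 30.9% of all genes lower. On the atherogenic diet none of 9 was lower without the 8 cells (-0.12), against 15.7% of all genes.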

How the data were processed

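Aortic arches were profiled with 10x Chromium 3′ chemistry. The authors aligned reads with Cell Ranger 6.1.2 to mm10 and deposited 1 matrix of UMI counts per library (98754487, 43717402, 12276546 and 24184211 UMIs over 15599 barcodes in all). Counts were read with Python 3.11.15, numpy 2.4.6, scipy 1.17.1 and pandas 2.3.3. Scrublet (scanpy 1.11.5) called doublets, which were left in. UMIs were summed over cells and scaled to CPM. Log2 ratios had 0.5 UMI added in proportion to depth, with exact 95% binomial-split intervals, for genes with at least 20 UMIs in the 2 sums, and a count of 0 was set at a floor of 3 UMIs. No test was run.

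Named against monocytes were the 15 highest and 15 lowest genes of at least 50 CPM with 1 sign in every library of at least 5 cells of both classes. Named between libraries were up to 10 genes per direction past 2-fold in both pairs with intervals without 0, besides genes of the lists, where a gene on several lists counts under each. The members, lists and rules were chosen with earlier results of these data known. Granule-poor and granule-rich cells, motif letters, Il1b and Cxcl2 between libraries, and the removal of cells with transcripts of other types were chosen after the values were seen. The ratio step was tested on simulated counts. Alternatives were other cell rules, minimum UMIs, totals, thinning, doublet removal and leaving out a library. Some genes and treatment details are not reported here.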

Additional observations from a re-analysis of the deposited data

Results flagged for a closer look

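The neutrophil share of kept cells was 1.32 times as high with the atherogenic diet in the Nrf2 flox/flox pair (log2 ratio 0.40, 95% counting interval -0.50 to 1.20) and 0.562 times as high in the Nrf2Cdh5tKO pair (log2 ratio -0.83, -2.50 to 0.64), opposite directions in the 2 pairs. Each side is 1 library, and the difference between the pairs was not tested. Per classical monocyte the log2 ratios were -1.13 and -0.81.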

How the results depend on the processing

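All 137 values of shares and per-monocyte ratios under the alternatives lay within the 95% counting interval of the main value. Of 108 gene counts, 49 differed from the main count by more than 1.5 times. Given as higher and lower, the main counts were 702 and 2490 for neutrophils against monocytes, 398 and 550 for diet in the Nrf2 flox/flox pair, 43 and 84 for diet in the Nrf2Cdh5tKO pair, 91 and 656 for label on the standard diet, and 141 and 490 for label on the atherogenic diet. In the same order, at least 50 UMIs gave 443 and 1555, 112 and 279, 12 and 20, 22 and 229, and 55 and 166. At least 1 UMI gave 2087 and 5564, 2699 and 3333, 1110 and 2921, 1107 and 6030, and 919 and 6152. Cells thinned to 1000 UMIs gave 344 and 502, 45 and 156, 13 and 11, 29 and 135, and 13 and 16. With S100a8 and S100a9 left out of the total, 1074 genes were higher against monocytes, which is 38.5% in place of 21.99% of genes past 2-fold, and 152 by label on the standard diet, 22.4% in place of 12.2%; the median log2 ratio of all genes went from -0.29 to -0.12 there and from -0.31 to -0.17 on the atherogenic diet. Means over cells gave 75 higher for diet in the Nrf2Cdh5tKO pair and 232 higher for label on the standard diet. Granule-poor cells alone gave 46 lower for diet in the Nrf2Cdh5tKO pair, 187 higher for label on the standard and 201 lower on the atherogenic diet. Without the 8 cells with transcripts of other types, 196 were higher for diet in the Nrf2 flox/flox pair, 427 lower for label on the standard diet, and 88 and 148 for label on the atherogenic diet. Granule-poor cells without these 8 gave 198 and 347 for diet in the Nrf2 flox/flox pair, 46 lower for diet in the other pair, 144 and 275 for label on the standard and 19 and 27 on the atherogenic diet. Leaving out 1 library at a time gave 465 to 733 higher and 1919 to 2521 lower against monocytes; the 465 came without the normocholesterolemic Nrf2 flox/flox library, which holds 88 of the 123 neutrophils. The cause of these shifts was not tested. No paired analysis was possible because each group is 1 library and no result comes from a test. The 6 neutrophils of the atherosclerotic Nrf2Cdh5tKO library, of which 3 are granule-poor, limit every comparison that uses them, and a gene at 0 there can lie at up to 65.4 CPM.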
